A study of Mus musculus with 8 samples.

Results

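The Fat atypical cadherins, *Fat1*, *Fat2*, *Fat3* and *Fat4*, were examined for histone H3 lysine 9 trimethylation (H3K9me3) in the colon crypts of mice with and without the chromatin remodeller Smarcad1. The members were all H3K9me3 peaks that the deposited annotation assigned to 1 of these 4 genes, which gave 13 of the 53761 peaks in the table, with 8 at *Fat1*, 5 at *Fat3* and 0 at *Fat2* and *Fat4*. *Fat1* was chosen by its large values of knockout (KO) minus wild type (WT), and its relatives were added by name. The KO to WT values of these peaks are therefore given as a description, without a p-value.

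Both genotypes were C57BL/6 mice. KO mice carried a Villin promoter driven Cre (*Vil-Cre*) that removes *Smarcad1* in intestinal epithelium, and WT mice were the control. For each genotype there were 3 ChIP libraries and 1 input library (DNA of the same kind without the antibody step), all from whole crypt isolates, in which Cre does not act on the non-epithelial cells. The study describes its replicates of this assay as biological, but the labels name no animals, so every p-value below measures the spread between these libraries. In such an isolate, a mark on more cells and more of the mark per cell cannot be told apart.

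H3K9me3 is a hallmark of heterochromatin. It is bound by HP1 proteins and is usually found over repeats, silent gene families and zinc finger gene clusters. Fat cadherins are very large single-pass membrane proteins whose extracellular part is a long array of cadherin repeats. The founding member, *Drosophila* Fat, binds the cadherin Dachsous on neighbouring cells and acts on the Hippo growth control pathway and on planar cell polarity. Fat1 organises actin at cell contacts and is often mutated in epithelial tumours, Fat4 is the closest relative of *Drosophila* Fat and binds Dchs1, and Fat2 and Fat3 are best known from neurons of the cerebellum and the retina.

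In this assay a value is the log2 of the reads in a peak after the authors matched the distribution of values over the 6 ChIP libraries. Values carried about 14 to 20 reads for the median peak. Of 12 colon epithelium markers, *Vil1* and *Lgr5* had a peak, and of 8 markers of other cells *Cd3e* and *Pecam1* had one, which says nothing of their expression. The epithelium markers had 3 peaks, of which that at *Vil1* was called, with KO minus WT of 5.68 (standard error 0.14). The input there had 133 WT against 1111 KO reads, a ratio of 8.35, so this difference cannot be read as a change of the mark alone. Whether the *Vil-Cre* transgene adds copies of this DNA was not tested. The other cell markers had 2 peaks with 0 called. *Smarcad1* itself had no peak, so its deletion could not be checked in these files. A peak was counted as called at an adjusted p under 0.05 (limma, Benjamini-Hochberg over all peaks). By this rule 0.796% of all peaks were higher in KO, 0.863% were lower and 1.66% were called in either direction.

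*Fat1* (ENSMUSG00000070047) lies on the plus strand at chr8:44935447-45052257 (GRCm38) and has 27 exons over 116811 bp. Its 8 peaks, numbered here 5′ to 3′, covered 107007 bp or 91.6% of the gene and 95.2% of the stretch from the first to the last peak. They adjoined or nearly adjoined each other, with gaps of 0 to 3150 bp, so they are pieces of a single stretch of chromatin and not separate observations. The DNA of the gene around these peaks is shown for 3 windows. The first holds the 200 bases before the annotated start, at chr8:44935247-44935446, and the second the 200 bases before exon 2, at chr8:44949996-44950195, which lies inside peak 1. This second window is the end of intron 1 in the longest gene model, and 3 of the 6 GENCODE transcripts of *Fat1* begin in the exon that follows it. CpG dinucleotides are in capitals. The third, at chr8:44988871-44989170, holds 60 intron bases in lower case and then 240 coding bases of exon 3 in capitals, because exon 3 was the only exon in the part of *Fat1* where the genotypes differed most.
Fat1 upstream start: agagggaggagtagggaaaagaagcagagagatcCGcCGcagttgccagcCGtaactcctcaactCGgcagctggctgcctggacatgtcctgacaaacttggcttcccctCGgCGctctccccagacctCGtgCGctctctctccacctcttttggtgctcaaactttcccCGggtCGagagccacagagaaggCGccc
Fat1 before exon 2: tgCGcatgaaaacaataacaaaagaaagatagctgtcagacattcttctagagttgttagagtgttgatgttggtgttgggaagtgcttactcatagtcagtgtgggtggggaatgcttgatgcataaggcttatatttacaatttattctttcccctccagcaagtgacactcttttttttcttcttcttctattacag
Fat1 exon 3 with its 5′ flank: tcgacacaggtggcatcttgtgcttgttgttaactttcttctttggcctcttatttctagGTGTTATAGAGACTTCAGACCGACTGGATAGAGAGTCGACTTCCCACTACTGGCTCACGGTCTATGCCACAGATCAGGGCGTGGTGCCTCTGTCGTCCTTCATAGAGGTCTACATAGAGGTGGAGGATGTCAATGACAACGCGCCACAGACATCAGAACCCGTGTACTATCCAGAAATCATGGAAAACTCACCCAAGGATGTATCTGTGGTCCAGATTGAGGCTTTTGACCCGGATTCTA

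The window before the annotated start held 11 CpG and 60.5% G and C, and the window before exon 2 held 1 CpG and 38.0% G and C. Among 32851 promoter windows of the same length in RefSeq annotation, the median was 5 CpG, 31.7% had at least as many as the first window and 23.3% at most as many as the second. The CpG rich start was outside every peak. Peak 1 began 4254 bp downstream of it, and the nearest upstream peak ended 4297 bp before it. The CpG poor window before exon 2 lay within peak 1.

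H3K9me3 over *Fat1* took the form of 2 very broad outer peaks with high values in both genotypes and, between them, 6 inner peaks with low values in WT and high values in KO. Averaged over the 6 inner peaks, WT libraries had a log2 value of 3.26 ± 0.35 (SD, n = 3), whereas KO libraries had 6.25 ± 0.59 (SD, n = 3), a difference of 2.99. Over the outer 2 the values were 10.29 ± 0.06 for WT (SD, n = 3) compared to 10.63 ± 0.20 for KO (SD, n = 3), a difference of 0.34. Of the 8 peaks, 7 were called and all 7 were higher in KO, against 0.796% of all peaks. The 6 inner peaks took ranks 3 to 33 of the 53761 peaks by KO minus WT. These are the values for which the gene was chosen, and nothing further is read from these counts.

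**Figure D1:**
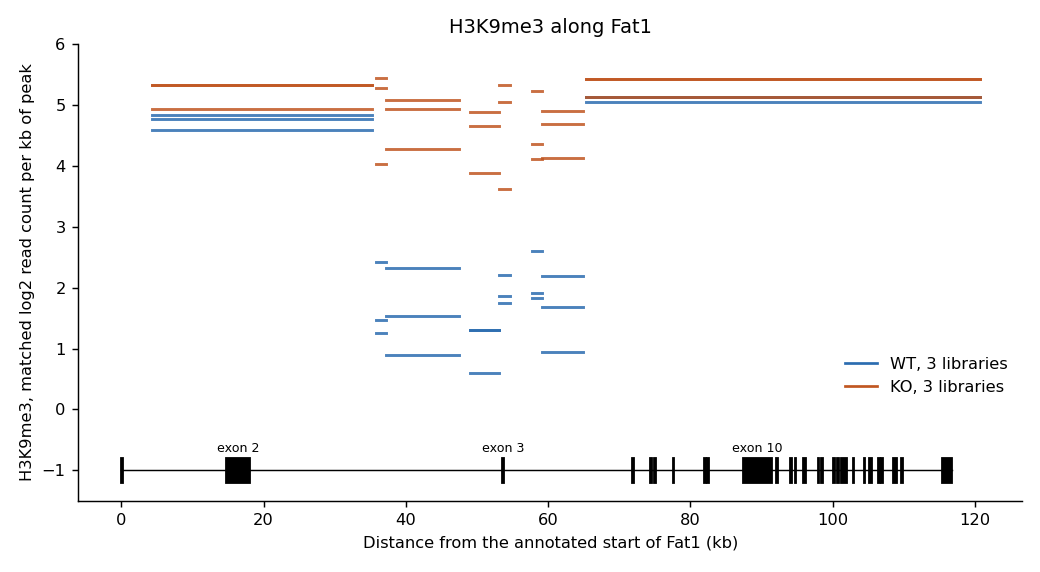
H3K9me3 along Fat1 as matched log2 read count per kb of peak (y axis) against distance from the annotated start in kb (x axis), with 1 horizontal line per peak and library and exons drawn as black boxes below. The 3 KO libraries stay between 3.62 and 5.44 over all 8 peaks, while the 3 WT libraries drop to between 0.60 and 2.60 over the inner 6.

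The first inner peak, peak 2 (chr8:44971201-44972700, 1500 bp, intron 2), had log2 values of 3.01, 1.84 and 2.05 in WT replicates 1 to 3 and of 5.87, 6.02 and 4.61 in KO replicates 1 to 3. The lowest KO value was above the highest WT value. KO exceeded WT by 3.20 (standard error 0.34). In reads, recovered from the steps of the values, WT had 7, 4 and 5 and KO had 48, 71 and 26.

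Peak 3 (chr8:44972701-44982900, 10200 bp, intron 2), the widest of the inner peaks, had values of 5.67, 4.24 and 4.88 in WT and of 8.28, 8.43 and 7.63 in KO. The groups were far apart, with KO higher by 3.18 (standard error 0.20). Peak 4 (chr8:44984401-44988600, 4200 bp, intron 2) had values of 3.37, 2.67 and 3.38 in WT and of 6.72, 6.96 and 5.96 in KO. It had the largest difference of the gene, 3.41 (standard error 0.25), or 10.6-fold on this scale. WT libraries held 9, 7 and 12 reads there, while KO replicates 1 and 3 held 90 and 63.

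Peak 5 (chr8:44988601-44990100, 1500 bp) was the inner peak over exon 3, whose 315 coding bases made up 21.0% of it and whose first bases are printed above. Its values were 2.80, 2.45 and 2.34 in WT and 5.64, 5.92 and 4.20 in KO. All KO values were above all WT values, and the difference was 2.72 (standard error 0.34). WT libraries held 6 reads each, compared to 41, 65 and 20 in KO.

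Peak 6 (chr8:44993251-44994600, 1350 bp, intron 3) had the smallest difference of the inner peaks. Its values were 2.27, 3.04 and 2.34 in WT and 4.79, 5.66 and 4.55 in KO, so the groups did not overlap, and the difference was 2.45 (standard error 0.34). In peak 7 (chr8:44994601-45000300, 5700 bp, intron 3) values were 4.70, 3.45 and 4.19 in WT and 7.20, 7.40 and 6.64 in KO. The difference was 2.97 (standard error 0.22), again without overlap.

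The outer peaks behaved differently. Peak 1 (chr8:44939701-44970750, 31050 bp) covered most of intron 1, exon 2 and the first part of intron 2. Its values were 9.72, 9.54 and 9.79 in WT and 10.28, 10.28 and 9.88 in KO. The groups did not overlap but lay close together, with a difference of 0.46 (standard error 0.09). This peak was called, but not with WT replicate 2 or KO replicate 1 left out, where the difference was 0.39 and 0.40. It was also not called after subtracting the input, where the difference was 0.38, or with a variance prior without a mean trend.

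Peak 8 (chr8:45000751-45056100, 55350 bp) covered exons 4 to 27 and ran 3843 bp past the gene. Its values were 10.84, 10.92 and 10.92 in WT and 11.21, 11.21 and 10.92 in KO, and KO replicate 3 tied with WT replicates 2 and 3. The difference of 0.22 (standard error 0.08) was not called, except with KO replicate 3 left out, where it was 0.32. Peak 8 was already among the highest 11 peaks in each WT library. After matching, a value this high records the rank of the peak in its library, so differences at the outer peaks cannot be read as ratios of reads.

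**Figure D2:**
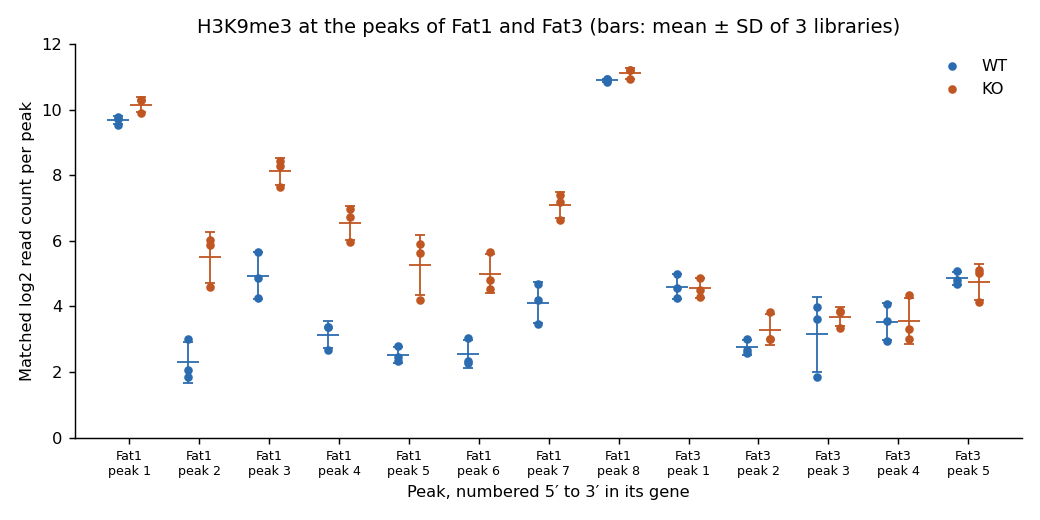
Matched log2 read count per peak (y axis) for the 8 Fat1 peaks and the 5 Fat3 peaks (x axis, 5′ to 3′), with points for single libraries and bars for mean ± SD of 3 WT and 3 KO libraries. The groups are separate at Fat1 peaks 1 to 7, widely so at peaks 2 to 7, and largely share their range at the Fat3 peaks.

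The values of KO and WT did not overlap at 7 of the 8 *Fat1* peaks, all with KO higher. Over all peaks this held for 7.2% with KO higher and for 15.6% in either direction. The KO libraries were not alike. KO replicate 3 was the lowest of the KO libraries at 8 of 8 *Fat1* peaks, and KO replicate 2 was the highest, tied at 2 of them with KO replicate 1. KO replicate 3 was also the lowest KO library at 71.3% of the 421 other peaks called higher in KO, compared to 32.4% of all peaks. At the 464 peaks called lower in KO it was the lowest KO library at 35.3% and the highest at 29.7%. Without this library, the mean difference over the 8 *Fat1* peaks was 2.60 in place of 2.33.

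Per kb of peak, WT *Fat1* had a trough in its middle that KO nearly lacked. The outer peaks exceeded the inner peaks on the log2 scale by 3.24 ± 0.34 (SD, n = 3) in WT but by 0.60 ± 0.40 (SD, n = 3) in KO. In WT replicates 1 to 3 this difference was 2.86, 3.50 and 3.37. In KO replicates 1 to 3 it was 0.54, 0.23 and 1.02, and all KO libraries were below all WT libraries. The inner peaks are those where KO exceeded WT most, so this separation restates the contrast for which the gene was chosen. Because the outer values record rank, the difference is not a ratio of reads. The inner 6 peaks made up 22.1% of the width of the *Fat1* peaks. They held 3.85%, 1.96% and 2.50% of the summed linear values in WT and 16.2%, 18.4% and 12.9% in KO. The outer peaks set most of these sums, with values that record rank, so the shares order the libraries but are not shares of reads. Of the input reads over the *Fat1* peaks, the inner 6 held 23.1% in WT and 24.1% in KO.

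In WT the inner peaks were extreme also among all peaks. Peak 4, with a mean log2 value of 1.07 per kb, was the lowest of all 53761 peaks in WT, and the other inner peaks, at 1.58 to 2.11, were within the lowest 0.0558%. The median of all peaks was 3.97. In KO, the inner peaks stood at 4.48 to 4.91 per kb, at or above 93.5% of all peaks. The authors called peaks on all ChIP libraries together, so a region low in WT could enter the table through KO alone, and such a region had to differ. The outer peaks, at 4.73 and 5.10 per kb in WT and 5.19 and 5.32 in KO, were high in both genotypes.

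Taken over the inner peaks as a set, the inputs did not show this pattern. Over the inner peaks the WT input had 240 reads and the KO input 232, a ratio of 0.967 (exact 95% interval 0.804 to 1.16, counting error only, as with all input intervals here). Over all *Fat1* peaks there were 1039 and 962 reads, a ratio of 0.926 (0.847 to 1.01), and over all peaks of the table the ratio was 0.943. Single peaks ranged from 0.6 (0.358 to 0.988, 45 against 27 reads) at peak 4 to 1.91 (0.88 to 4.38, 11 against 21 reads) at peak 6. Over all peaks with at least 10 WT input reads the median ratio was 0.857 and the central 95% ran from 0.333 to 1.63. Because these peaks were picked by their WT reads, this range is biased towards low ratios. It also takes no account of how many reads a peak holds. The ratio of peak 4 lay inside this range and that of peak 6 above it. The log2 ChIP value minus the log2 input of the same genotype was -2.36 to -0.79 at the inner peaks in WT and 0.61 to 1.79 in KO, where the medians of all peaks were 0.79 and 0.88. By this measure peak 6, at 0.61, was below the median of all peaks in KO, and the other inner peaks were above it. ChIP and input were scaled differently, so these differences order peaks and give no absolute enrichment. With 1 input library per genotype, the input has no replicate check.

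**Figure D3:**
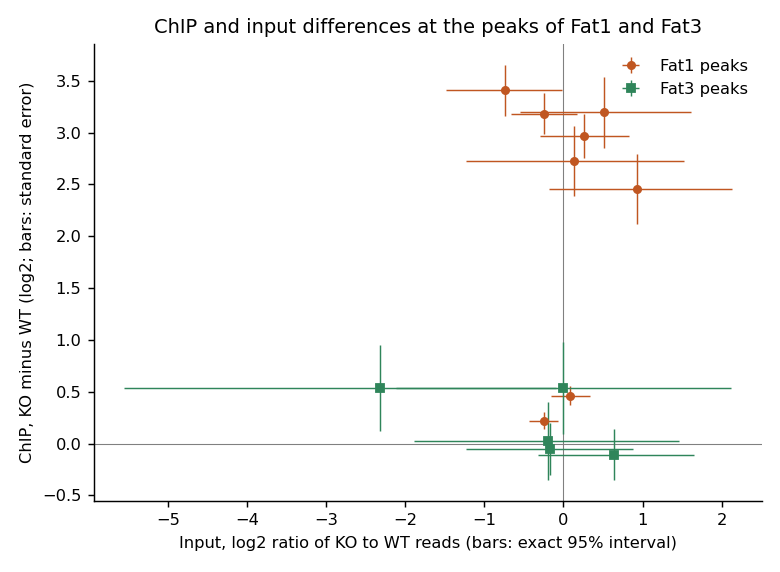
Log2 ratio of KO to WT input reads with its exact 95% interval (x axis) against KO minus WT of the ChIP values with its standard error (y axis), 1 point per Fat1 or Fat3 peak. The 6 inner Fat1 peaks lie between 2.45 and 3.41 on the ChIP axis and on both sides of 0 on the input axis.

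In sequence, the *Fat1* peaks were poor in repeats for H3K9me3 peaks of this table and rich in CpG. Repeats covered 13.0% to 26.5% of each peak (median 16.4%), where the median of all peaks was 37.8%. CpG density was 1.48 per 100 bases at the median, where all peaks had 0.667, and G and C made up 43.7% against 41.9%. The inner peaks had 0.667 to 1.6 CpG per 100 bases, and the outer peaks 1.85 and 2.14.

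No difference of the size seen at the inner peaks was measured within 1 Mb of *Fat1*. This stretch held 23 further peaks, 15 upstream and 8 downstream, whose KO minus WT ranged from -0.73 to 0.47 with a median of -0.16, and the smallest adjusted p was 0.465 (limma). Of the 23 peaks 0 were called and 1 had an unadjusted p under 0.05, counts close to what the shares over all peaks (1.66% and 10.6%) give for so few peaks. The nearest upstream peak (chr8:44927851-44931150) was not called. WT stood at 6.01 ± 0.20 (SD, n = 3) and KO at 6.23 ± 0.09 (SD, n = 3), which differed by 0.22 ± 0.16 (standard error, adjusted p = 0.688 by limma). At the nearest downstream peak (chr8:45156901-45158550) WT stood at 4.71 ± 0.21 (SD, n = 3) and KO at 5.03 ± 0.43 (SD, n = 3), which differed by 0.32 ± 0.23 (standard error, adjusted p = 0.681 by limma).

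**Figure D4:**
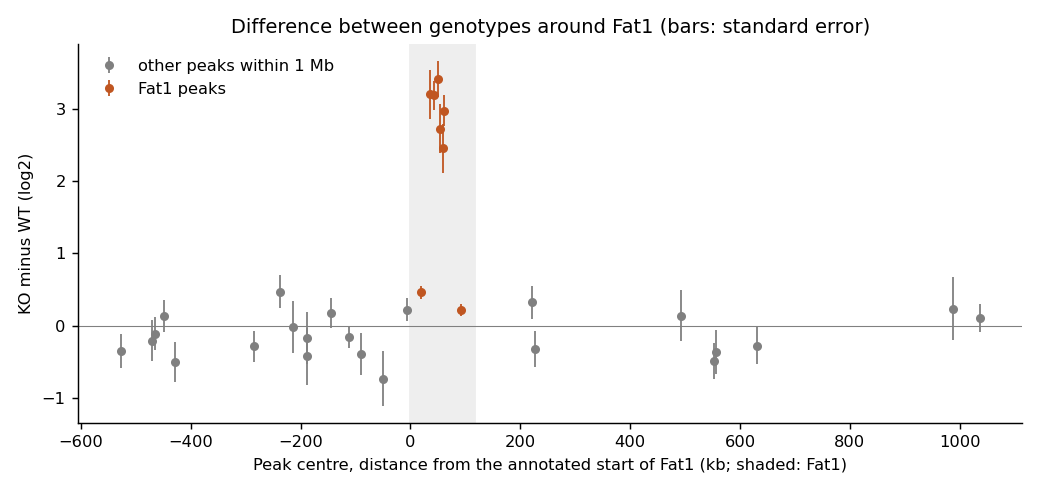
KO minus WT in log2 (y axis, bars are the standard error) for peaks around Fat1, by distance of the peak centre from the annotated start in kb (x axis), with the gene shaded. The 6 inner Fat1 peaks stand above 2.4, and the 23 other peaks within 1 Mb lie between -0.73 and 0.47.

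*Fat3* (ENSMUSG00000074505, minus strand, chr9:15910189-16501285) is the longest of the 4 genes at 591097 bp. Its 5 peaks were narrow, 450 to 1950 bp, and together covered 0.964% of it. Averaged over them, WT libraries had a log2 value of 3.78 ± 0.20 (SD, n = 3), compared to 3.97 ± 0.38 for KO (SD, n = 3), a difference of 0.19. No peak of *Fat3* was called by limma (0 of 5, and 0 at an unadjusted p under 0.05), where 1.66% and 10.6% of all peaks were, so that 0 of 5 is near the background. KO minus WT ranged from -0.11 to 0.54.

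The 2 widest *Fat3* peaks lay over large coding exons. Peak 1 (chr9:16374601-16376400) had 80.7% of its bases in exon 2, with values of 4.27, 5.00 and 4.55 in WT and of 4.51, 4.28 and 4.87 in KO. Peak 5 (chr9:15995851-15997800) lay wholly within exon 10, with values of 4.70, 5.08 and 4.79 in WT and of 5.03, 4.12 and 5.10 in KO. In both peaks the groups overlapped, with differences of -0.05 (standard error 0.25) and -0.11 (standard error 0.24).

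The 3 intronic *Fat3* peaks had fewer reads. Peak 2 (chr9:16255801-16256250) had values of 3.01, 2.67 and 2.59 in WT and of 3.84, 3.02 and 3.02 in KO, which just cleared each other, with a difference of 0.54 (standard error 0.44) from 7 to 12 reads per library. Peak 3 (chr9:16153651-16154400) had values of 3.99, 1.84 and 3.61 in WT and of 3.84, 3.35 and 3.86 in KO. They overlapped, and the difference of 0.54 (standard error 0.41) was -0.12 with WT replicate 2 left out. Peak 4 (chr9:16123201-16123950) had values of 4.09, 3.56 and 2.96 in WT and of 4.34, 3.02 and 3.31 in KO, and differed by 0.02 (standard error 0.37).

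Another 4 peaks lay inside the longer GENCODE model of *Fat3* but were assigned to no gene in the table, and so were not members. Their KO minus WT was 0.19, -0.02, -0.62 and 0.51, with adjusted p between 0.49 and 0.99 (limma). The *Fat3* inputs held 57 WT and 55 KO reads, a ratio of 0.965 (exact 95% interval 0.654 to 1.42).

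*Fat2* (ENSMUSG00000055333, chr11:55250609-55336564) and *Fat4* (ENSMUSG00000046743, chr3:38886940-39011985) had no peak. The nearest peaks were 70737 bp from *Fat2* and 18040 bp from *Fat4*, with KO minus WT of -0.54 (adjusted p = 0.712 from limma) and -0.32 (adjusted p = 0.788 from limma). A gene without a peak passed no call against the input at this depth, and its level of H3K9me3 is not known from these files.

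The Fat genes share an architecture of a few very long coding exons, which allows their peaks to be placed side by side. Exon 2 was 3286 bp in *Fat1*, 3270 bp in *Fat2* and 3306 bp in *Fat3*, and exon 10 was 4068 bp in *Fat1*, 4059 bp in *Fat2* and 4074 bp in *Fat3*. Both exons had a peak in *Fat1* and *Fat3*. Peaks covered them whole in *Fat1*, whereas in *Fat3* they covered 43.9% of exon 2 and 47.9% of exon 10. In *Fat2* neither exon had a peak, nor had exons 1 and 9 of *Fat4*, at 5195 and 4350 bp. In *Fat1*, both exons were in the outer peaks, with high values in both genotypes.

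Genes of the Fat to Dachsous, Hippo and planar cell polarity pathways were looked up from a list of 52 genes that excluded the Fat genes. Of these, 10 had a peak, with 32 peaks in all. In KO, 14 were called higher and 0 lower, where 0.796% and 0.863% of all peaks were. All 14 were peaks of *Wwc2*, which encodes a scaffold that activates the Hippo kinases. KO minus WT there had a median of 1.75 over 16 peaks and reached 2.75. These peaks lie in a single gene and are not separate observations, so the count is no result about the pathways. The other 9 genes had 16 peaks with 0 called, where 1.66% of all peaks were called in either direction, so 0 of 16 is near that share. Their median was -0.19 and their smallest adjusted p was 0.095 (limma). At an unadjusted p under 0.05 there were 5 of these 16 peaks, compared to 10.6% of all peaks. The median over all peaks of the table was 0.002.

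Among these 9 genes were the polarity cadherins *Celsr1*, with 2 peaks at -0.81 and -0.74, and *Celsr2*, with 1 peak at 0.65. The polarity genes *Fzd6*, a Frizzled receptor, and *Prickle2* had 1 peak each, at -0.09 and 0.02. Upstream in the Hippo pathway, *Frmd6* had 1 peak at -0.35 and the kinase gene *Taok3* had 5 at -0.44 to 0.04. The core Hippo kinase gene *Stk3* had 3 at -0.66 to -0.07. At the end of the pathway, the coactivator gene *Wwtr1* (TAZ) had 1 peak at -0.13 and its transcription factor partner *Tead1* had 1 at -1.08, the peak with the smallest adjusted p. The ligand genes *Dchs1* and *Dchs2* and the coactivator gene *Yap1* had no peak.

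Finally, genes were ranked by how closely their mean over peaks followed that of *Fat1* across the 6 ChIP libraries (Euclidean distance after centring, 1175 genes with at least 3 peaks). The closest were *Bach1* (distance 0.388, 3 peaks), *Tcf4* (0.412, 21 peaks), *Stox2* (0.535, 11 peaks), *Bcl11b* (0.76, 7 peaks) and *Wwc2* (0.862, 16 peaks). Their KO minus WT was 2.36, 2.09, 1.90, 1.73 and 1.69, next to 2.33 for *Fat1*, so that these were the 6 highest genes by this difference and the likeness largely restates it. KO replicate 3 was the lowest KO library in each of them. *Stox2* and *Wwc2* lie, as *Fat1* does, on chromosome 8, but more than 1 Mb from it. *Fat3* had a distance of 2.82 and rank 182 by KO minus WT.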

How the data were processed

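H3K9me3 ChIP-seq libraries of mouse colon crypts (3 WT, 3 KO) and 1 input per genotype were used. Reads were trimmed with Trim Galore 0.6.1 and aligned to GRCm38 with Bowtie2 2.3.2 (versions per the labels). The methods differ from the labels, with an older Trim Galore version and longer reads, imported as pairs. Whether a counted read is a single read or a read pair is therefore not settled here. Per the methods, the authors removed duplicates, used SeqMonk to call MACS peaks once, from all 6 ChIP libraries with both inputs as background, and assigned each peak to the closest gene within 5 kb. Each deposited ChIP value is the log2 of a read count, to which the authors applied matching of the distributions of the 6 libraries. This removes any global difference between genotypes. The deposited input values are log2 counts of whole reads, not scaled. A second deposited table, with the authors' own edgeR fold changes and p-values for a subset of peaks, was not used.

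All 53761 peaks were fitted with limma 3.58.1 (R 4.3.3, variance prior with a mean trend, genotype only, two-sided), with Benjamini-Hochberg adjustment over all peaks and a threshold of 0.05. This design replaced the count test of the study, since raw ChIP counts were not used here. The fit was tested on simulated data with normally distributed noise, unlike matched low read counts, and no result here rests on that test. Reads up to 100 per peak and library were recovered from the ranked steps of the values, assuming that each successive value is 1 further read. Gene models were GENCODE vM21, and repeats, CpG and GC were read from GRCm38.p6. Input ratios have exact Clopper-Pearson intervals at 95%. The replicate numbers of WT and KO were not treated as pairs, since the labels name no animals. All members were described. From the pathway list the genes with a called peak were to be named, from the neighbours the nearest peak on each side, and as genes of like pattern the 5 closest among those with at least 3 peaks. The other pathway genes with a peak, and 3 without, were named after their values were seen. The members and lists were chosen with earlier results of these data known. Alternatives were another variance prior, a filter at a mean log2 value of 4, median centring, quantile normalization, subtraction of the input, a replicate block, other thresholds and leaving out each library.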

Additional observations from a re-analysis of the deposited data

How the results depend on the processing

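The number of *Fat1* peaks called (7) was 6 to 8 with 1 library left out. KO minus WT stayed above 0 at every *Fat1* peak under all 93 alternatives run on single peaks, but the gene was chosen for this difference. Its value at a single peak cannot change under another variance prior, the filter or the replicate block, so those alternatives are no check of it. With the input subtracted, values at single *Fat1* peaks moved both ways. The difference became 1.52 in place of 2.45 at peak 6, 4.15 in place of 3.41 at peak 4 and 0.47 in place of 0.22 at peak 8. A filter on low values left 5 *Fat1* peaks, of which 4 were called, because fewer peaks were tested. The mean difference over *Fat1* (2.33) was 2.13 to 2.60 with 1 library left out and 0.51 as log2 of the summed values, which the outer peaks dominate. Subtracting the input, which has 1 library per genotype, gave 1 called *Fat3* peak (peak 3, from 10 and 2 input reads), a mean over *Fat3* of 0.60 in place of 0.19, and 3 called neighbours of *Fat1*, all lower in KO. For the pathway list it gave 20 called peaks, 15 of them higher, in place of 14. Without a mean trend in the variance prior, 7 pathway peaks were called. The cause of these last changes was not tested. The *Fat3* mean was 0.01 to 0.39 and the pathway count 13 to 14 with 1 library left out, while the *Fat3* and neighbour counts stayed at 0. *Fat2* and *Fat4* gave no value under any alternative. Depth limits the inner WT values, which rest on 4 to 45 reads.

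With the replicate number as a block, 7 *Fat1* peaks, 0 *Fat3* peaks, 0 neighbours and 14 pathway peaks were called. The mean differences stayed at 2.33 for *Fat1* and 0.19 for *Fat3*, and they could not change, since the block is balanced over the genotypes. Deviations of libraries of the same number had correlations of -0.001, 0.019 and 0.016, and those of different numbers -0.024 to 0.007. All are near 0, but at this depth they do not settle whether the numbers pair the libraries.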
